A study of Mus musculus with 10 samples.

Results

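The Fox, Sox, Tbx and Gata genes encode 4 families of transcription factors, and 67 of them were measured here. Members were the genes on chromosomes 1 to 19 whose windows carried a Fox, Sox, Tbx or Gata family name, leaving out *Foxl2* and *Foxo3*. They comprised 34 Fox, 16 Sox, 12 Tbx and 5 Gata genes out of 23225 autosomal genes named in the table, and held 885 of its 544879 windows of 5 kb. H3K4me3, a histone mark of promoters and CpG islands, was mapped with ULI-nChIP-seq, a low-input method that uses nuclease-digested chromatin from cells that were not fixed. The oocytes were germinal vesicle (GV) oocytes, which are fully grown and arrested in meiotic prophase, from mice 21 days old on a C57BL6 background. In the *Setd1b* conditional knockout (cKO), both *Setd1b* alleles were floxed and *Gdf9*-Cre was present. The wild-type (WT) group had floxed *Setd1b* alleles and was labelled *Gdf9*-Cre negative, while the methods of the study also count females with 1 deleted allele and Cre as WT. *Gdf9*-Cre is active in oocytes from early folliculogenesis, and SETD1B is 1 of the mammalian H3K4 methyltransferases. Each library was made from a pool of about 200 oocytes, with replicates 1, 3 and 4 for cKO, replicates 1, 2 and 4 for WT, and inputs without precipitation for replicates 1 and 4 of each genotype.

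Fox proteins bind DNA through a forkhead domain and Sox proteins through an HMG box related to that of the sex-determining factor SRY. Tbx proteins carry a T-box, and Gata proteins carry zinc fingers that bind GATA motifs. Most members direct the formation of tissues in the embryo, such as heart, limb, neural crest, endoderm or blood, and several Fox and Sox genes are also used in the ovary and testis. Promoters of such developmental regulators are often rich in CpG dinucleotides, and CpG islands carry H3K4me3 in many cell types whether or not the gene is transcribed.

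The values are enrichment-normalized RPKM, in which the 40th and the 99th percentile of all windows are equal in every library, at 1.23 and 6.77. A library's value at 0 reads therefore differed between libraries, from −1.02 in cKO replicate 3 to 0.81 in WT replicate 1, so differences and not ratios are given. The windows held between 10856015 and 32775874 reads per H3K4me3 library. The ratio of reads at these percentiles, a measure of enrichment, was 13.5, 3.47 and 3.87 in the cKO libraries and 14.3, 5.38 and 6.97 in the WT libraries, lowest in cKO replicates 3 and 4. At the start of *Setd1b* itself (chr5:123145001-123150000, GRCm38), H3K4me3 was 2.17, 3.21 and 3.25 in cKO and 8.34, 9.69 and 7.37 in WT (difference −5.59 ± 0.57 SE, adjusted p = 0.0124). No library went against its label at this window of the targeted gene. The rest of its 5 windows had differences between 0.10 and 0.38 that did not pass. The windows of 9 measured oocyte marker genes summed to between 44.9 and 45.8 in the cKO libraries and between 52.7 and 57.4 in the WT libraries. Those of 10 granulosa cell markers, genes of the somatic cells around the oocyte, summed to between 47.4 and 54.2 in cKO and between 40.4 and 44.8 in WT, and of these 10 *Fshr* had the lowest mean level, 1.31. All 3 cKO libraries lay above all WT libraries in 6 of the 10 granulosa genes, beside 13.8% of all autosomal genes at their highest windows. They lay below all WT libraries in 6 of the 9 oocyte genes, beside 10.6% of all autosomal genes. The marker values are levels of a chromatin mark and not of expression, and their part in the results that follow was not tested.

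The sequences shown here lie in or beside 4 of the windows on which the results turn, and were read from the RefSeq copy of GRCm38, 5′ to 3′ on the strand of the gene, with CpG dinucleotides in capitals. The first precedes a *Gata2* transcript start inside a window that gained H3K4me3 (chr6:88198084-88198333, plus strand, 9 CpG in 250 bases). The second precedes a start of the short *Sox5* transcripts, also inside a window that gained (chr6:143947107-143947356, minus strand, 3 CpG in 250 bases). The third is the CpG-richest stretch of 200 bases in the *Sox5* window with the largest increase, inside an intron (chr6:144318047-144318246, minus strand, 8 CpG). The last precedes a *Foxj3* start just before the window that lost H3K4me3 (chr4:119539530-119539660, plus strand, 20 CpG in 131 bases).
Gata2: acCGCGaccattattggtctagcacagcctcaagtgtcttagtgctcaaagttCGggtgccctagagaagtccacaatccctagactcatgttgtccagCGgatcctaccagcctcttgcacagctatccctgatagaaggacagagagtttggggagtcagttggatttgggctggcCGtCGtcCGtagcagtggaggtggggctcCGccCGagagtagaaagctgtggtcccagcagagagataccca
Sox5 short transcripts: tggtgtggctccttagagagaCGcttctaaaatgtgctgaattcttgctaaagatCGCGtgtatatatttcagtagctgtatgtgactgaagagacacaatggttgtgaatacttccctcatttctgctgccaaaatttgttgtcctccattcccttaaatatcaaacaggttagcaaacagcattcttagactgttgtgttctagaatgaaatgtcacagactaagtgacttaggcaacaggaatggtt
Sox5 intron: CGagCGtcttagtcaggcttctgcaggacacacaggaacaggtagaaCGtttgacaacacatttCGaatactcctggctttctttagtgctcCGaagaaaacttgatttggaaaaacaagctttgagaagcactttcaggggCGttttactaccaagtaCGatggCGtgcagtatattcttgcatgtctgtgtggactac
Foxj3: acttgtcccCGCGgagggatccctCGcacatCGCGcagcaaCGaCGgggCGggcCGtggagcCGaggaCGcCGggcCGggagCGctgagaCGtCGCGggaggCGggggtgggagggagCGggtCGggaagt
The *Foxj3* stretch has the most CpG for its length, and the *Sox5* promoter the fewest. Among RefSeq promoters, the 250 bases before the start held a median of 16 CpG in the 57 promoters matched to 46 of the members, and a median of 6 CpG in 31396 autosomal promoters. At least 1 CpG was present in 100% of the members' promoters and in 92.4% of all autosomal promoters.

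For each gene, the window with the highest mean over the 6 libraries, called its peak window here, was compared between genotypes. H3K4me3 at the peak windows was on the whole somewhat higher in cKO, with the clearest increases at *Gata2* and *Sox6* and the clearest decrease at *Foxj3*. The mean level ran from 1.37 at *Tbx6* to 8.25 at *Foxn1*, and 16 of the 67 peak windows lay above the 99th percentile of all windows by mean level. Only *Tbx6* lay below the median of all windows. The peak window held the annotated start of the gene for 35 members and a start of any of its transcripts for 47 members. The median input signal over the peak windows was between 1.70 and 1.99 in the 4 input libraries, whose signal is not on the H3K4me3 scale.

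The median peak window was 5.67, 4.93 and 5.57 in cKO replicates 1, 3 and 4, and 4.68, 4.54 and 4.74 in WT replicates 1, 2 and 4, without overlap of the genotypes. The median difference was 0.42 over the 67 members, against 0.04 over the peak windows of the 23225 autosomal genes and −0.10 over all windows. The difference was positive in 45 members (67.2%) and negative in 22, while 51.6% of all autosomal genes had a positive difference. Every cKO library lay above every WT library in 15 members, beside 13.8% of all autosomal genes, and below every WT library in 5 members, beside 10.6%. An unadjusted p under 0.05 was reached in 26 members, 20 of them higher and 6 lower in cKO. Over all autosomal genes 13.9% were higher and 11.6% lower by this rule. After Benjamini-Hochberg adjustment over all windows of the limma fit, 3 members passed at 0.05, with 2 gains, beside 1.28% of the peak windows of autosomal genes that gained, and 1 loss, beside 1.18% that lost. With only 67 windows, counts of 2 and 1 give little ground for telling the members from that background.

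**Figure D1:**
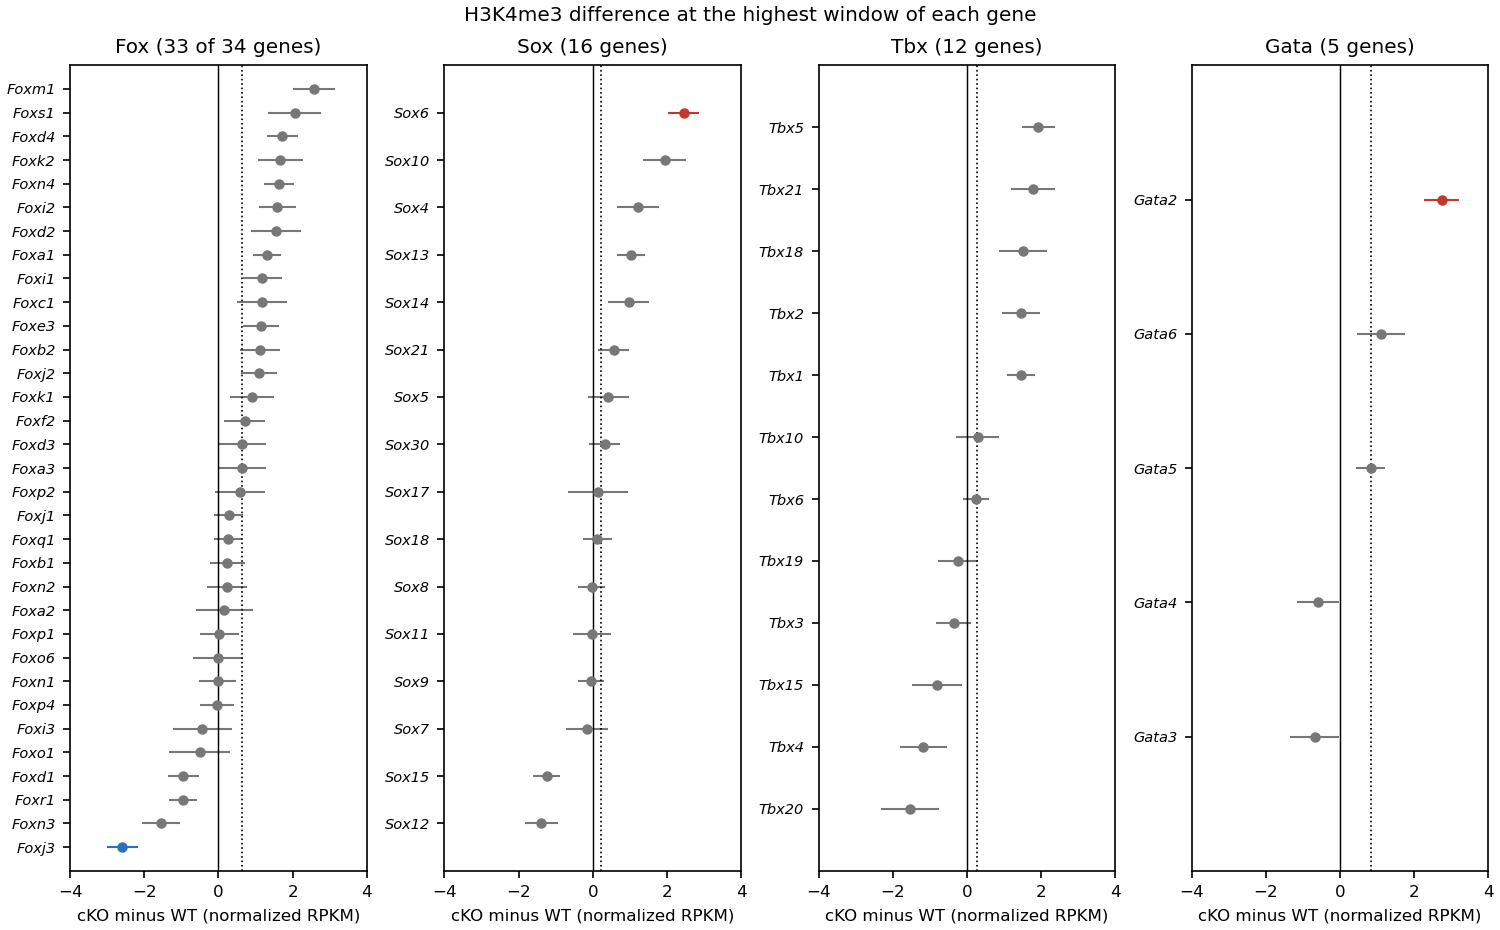
Difference in H3K4me3 between cKO and WT (horizontal axis, normalized RPKM, mean of 3 libraries minus mean of 3 libraries) at the peak window of 66 of the 67 genes, by family, with bars for the standard error of the limma fit and a dotted line for the median of the whole family. *Gata2* and *Sox6* (red) and *Foxj3* (blue) passed the test, and the medians run from 0.23 for Sox to 0.82 for Gata.

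*Gata2*, a regulator of blood stem and progenitor cells, had 7.0, 7.17 and 8.51 in the cKO libraries and 5.15, 4.34 and 4.98 in the WT libraries at chr6:88195001-88200000. All 3 cKO libraries were above all WT libraries, and the window gained by 2.74 ± 0.46 (SE, n = 3 and 3, limma adjusted p = 0.0329). This window has 260 CpG, holds an exon and a transcript start of the gene, and begins 1.11 kb after the annotated start. The neighbouring window with that start (chr6:88190001-88195000) had means of 5.65 in cKO and 3.55 in WT, a difference of 2.11 ± 0.44 that did not pass (adjusted p = 0.0557). Among the other Gata genes, *Gata3*, a T cell factor and the highest of the family, had means of 7.24 in cKO and 7.92 in WT (adjusted p = 0.597). *Gata5*, a factor of heart and endoderm and the lowest, had 3.79 and 2.97 (adjusted p = 0.357).

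*Sox6*, which with *Sox5* belongs to the SoxD group needed for cartilage, had 6.50, 6.91 and 5.76 in cKO and 4.21, 3.37 and 4.23 in WT at chr7:115575001-115580000. The groups did not overlap, and the difference was 2.45 ± 0.42 (limma adjusted p = 0.0340). The window overlaps an exon within the gene, lies 459 kb from the annotated start, and has only 34 CpG, the fewest of any member's peak window. *Foxj3*, a broadly expressed forkhead factor, had 5.17, 4.66 and 5.23 in cKO and 7.30, 8.43 and 7.10 in WT at chr4:119540001-119545000. Here all cKO libraries were below all WT libraries, with a difference of −2.59 ± 0.42 (limma adjusted p = 0.0304), and the window is 3.00 kb from the annotated start. The window before it, which holds the annotated start of *Foxj3* but carries the name *AA415398*, had 6.66, 6.25 and 5.91 in cKO and 8.55, 8.53 and 7.19 in WT (adjusted p = 0.0849).

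These 3 calls did not hold under every setting. Leaving out 1 library at a time gave adjusted p between 0.0240 and 0.128 for *Gata2*, between 0.0352 and 0.128 for *Sox6* and between 0.0291 and 0.110 for *Foxj3*, each passing only without cKO replicate 1. On log2 values, with quantile normalization and with edgeR on the reads behind the values, no peak window of a member passed, although none of the 3 changed direction. An unadjusted p under 0.05 was reached at 10 and 9 peak windows with the 2 log2 scales, at 15 with quantile normalization and at 0 with edgeR. The same settings gave 12.5%, 9.48%, 19.4% and 6.85% of the peak windows of autosomal genes, and the 67 members had 14.9%, 13.4%, 22.4% and 0%.

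**Figure D2:**
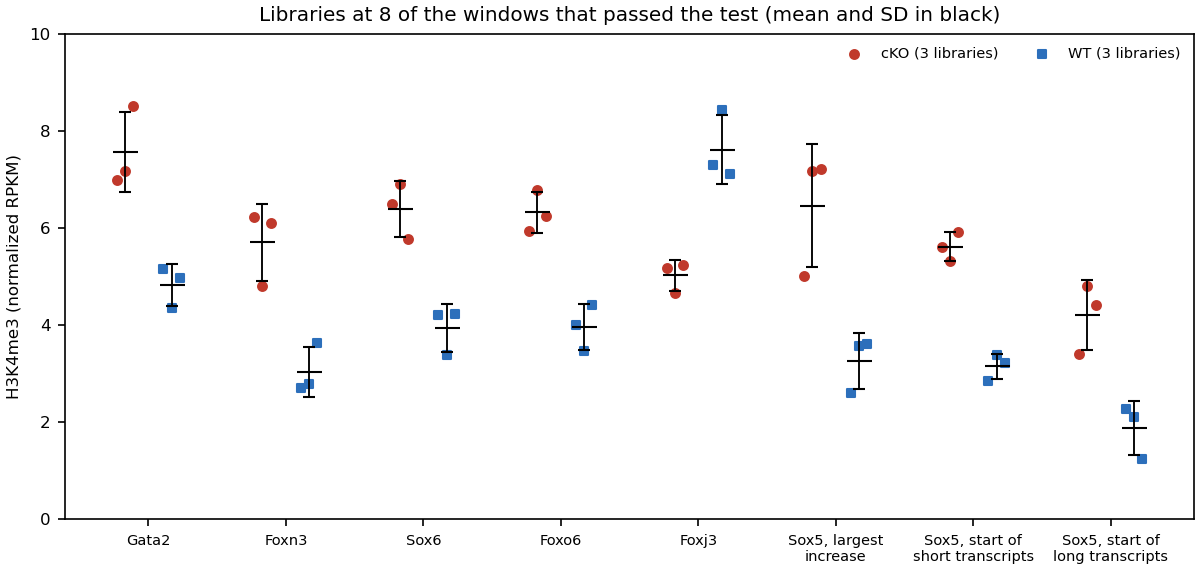
H3K4me3 (vertical axis, normalized RPKM) in each cKO library (circles) and WT library (squares) at the 5 called windows outside *Sox5* and at 3 of the 21 called *Sox5* windows, with the mean and SD in black. In each window the genotypes do not overlap, and *Foxj3* is the only one with lower values in cKO.

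The Fox family had a median peak window of 5.61, 4.53 and 5.50 in cKO and 4.63, 4.54 and 4.80 in WT, and a median difference of 0.63, with 25 of 34 genes higher in cKO. The library medians had an SD of 0.43, and cKO replicate 3 lay below all WT libraries, so the genotypes overlapped in this family. *Foxm1*, a driver of the mitotic gene programme, had the largest difference, with 5.67, 7.30 and 7.74 in cKO and 4.32, 3.56 and 5.10 in WT (2.58 ± 0.58, adjusted p = 0.0680). *Foxs1* had means of 4.47 and 2.42 (adjusted p = 0.211) and *Foxd4* 7.75 and 6.03 (adjusted p = 0.0861). At the other end, after *Foxj3*, were *Foxn3* with 6.05 and 7.61 (adjusted p = 0.177) and *Foxr1*, a forkhead gene used in the germ line, with 5.69 and 6.64 (adjusted p = 0.270). The highest levels in the family were at *Foxn1*, the gene mutated in nude mice, with 8.24 in cKO and 8.26 in WT, at *Foxo6*, a FOXO factor of the brain, with 7.74 and 7.75, and at *Foxo1*, which acts in insulin signalling, with 6.76 and 7.27. The lowest were at *Foxp4*, with 1.75 and 1.79, and at *Foxi1*, a factor of the inner ear and kidney, with 2.96 and 1.78. None of these 5 windows passed the test. The cKO libraries of *Foxo1* (8.60, 4.53 and 7.16) had the largest SD of any member's peak window, 2.07, against a median of 0.88 over the members.

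The Sox family had a median peak window of 4.69, 4.20 and 5.33 in cKO and 4.16, 4.44 and 4.38 in WT, and a median difference of 0.23 with an SD of 0.41 between library medians, with overlap of the genotypes. Besides *Sox6*, the largest positive differences were at *Sox10*, the neural crest factor, with means of 4.75 and 2.80 (adjusted p = 0.142), and at *Sox4*, with 6.95 and 5.73 (adjusted p = 0.352). The negative end was held by *Sox12*, a close relative of *Sox4*, with 6.30 and 7.69 (adjusted p = 0.172), and by *Sox15*, with 2.59 and 3.84 (adjusted p = 0.145). In both genes all 3 cKO values were lower than all WT values. *Sox7*, a factor of blood vessels, had 4.60 and 4.76. *Sox12*, *Sox4* and *Sox17*, the endoderm factor (6.26 and 6.12), had the highest levels, and *Sox30*, a gene of spermatids (3.04 and 2.73), *Sox15* and *Sox13* (3.99 and 2.96) the lowest. No member of the family other than *Sox6* passed at its peak window, and the peak window of *Sox5* itself had 6.13 and 5.70 (adjusted p = 0.707).

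The Tbx family had a median peak window of 5.80, 5.78 and 5.30 in cKO and 5.75, 5.22 and 5.14 in WT. Its median difference was 0.27, below the SD of 0.31 between library medians, and no Tbx window passed the test. Among the peak windows *Tbx5*, the T-box gene of heart and forelimb, came closest with 5.33, 5.45 and 3.93 in cKO and 2.85, 2.88 and 3.21 in WT (1.92 ± 0.45, adjusted p = 0.0738). The cKO libraries of *Tbx5* were all higher than those of WT, as were those of *Tbx21*, the Th1 cell factor T-bet, at means of 4.40 and 2.61 (adjusted p = 0.186). *Tbx18* had 6.02 and 4.51 with overlapping libraries (adjusted p = 0.315). Negative differences at the peak window were measured at *Tbx20*, a heart factor (5.48 and 7.02), at *Tbx4*, the hindlimb T-box gene (6.28 and 7.46), and at *Tbx15* (6.36 and 7.15), with adjusted p of 0.398, 0.426 and 0.547. *Tbx4*, *Tbx15* and *Tbx2* (7.12 and 5.65, adjusted p = 0.209) had the highest levels, while *Tbx6*, a factor of somite formation, had 1.49 and 1.24. The Gata family, with only 5 genes, had a median difference of 0.82, the largest of the 4 families, with an SD of 0.88 between library medians.

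The choice of window mattered for the families. At the windows that hold the annotated start, whatever gene name they carry, the median difference over the members was 0.57, against 0.13 at the start windows of autosomal protein-coding genes, and 52 of 67 (77.6%) were higher in cKO, beside 55.9% of those of the protein-coding genes. By family it was 0.61 for Fox, 0.39 for Sox, 0.69 for Tbx and 0.82 for Gata, so that the Tbx median was 0.69 at the start windows and 0.27 at the peak windows. The median start window was 4.89, 4.53 and 4.89 in cKO and 4.11, 4.24 and 4.02 in WT, without overlap. Of these windows 2 gained, at *Sox5* and *Sox10*, beside 1.24% of the start windows of autosomal protein-coding genes, and none was lost at adjusted p under 0.05. At an unadjusted p under 0.05, 20 were higher and 6 lower in cKO, beside 15.5% and 9.33% of the start windows of autosomal protein-coding genes. At *Sox10* the start window (chr15:79165001-79170000, which carries the name *Gm10863*) had 5.55, 7.17 and 7.88 in cKO and 3.11, 3.27 and 4.02 in WT, a difference of 3.40 ± 0.56 (limma adjusted p = 0.0313).

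**Figure D3:**
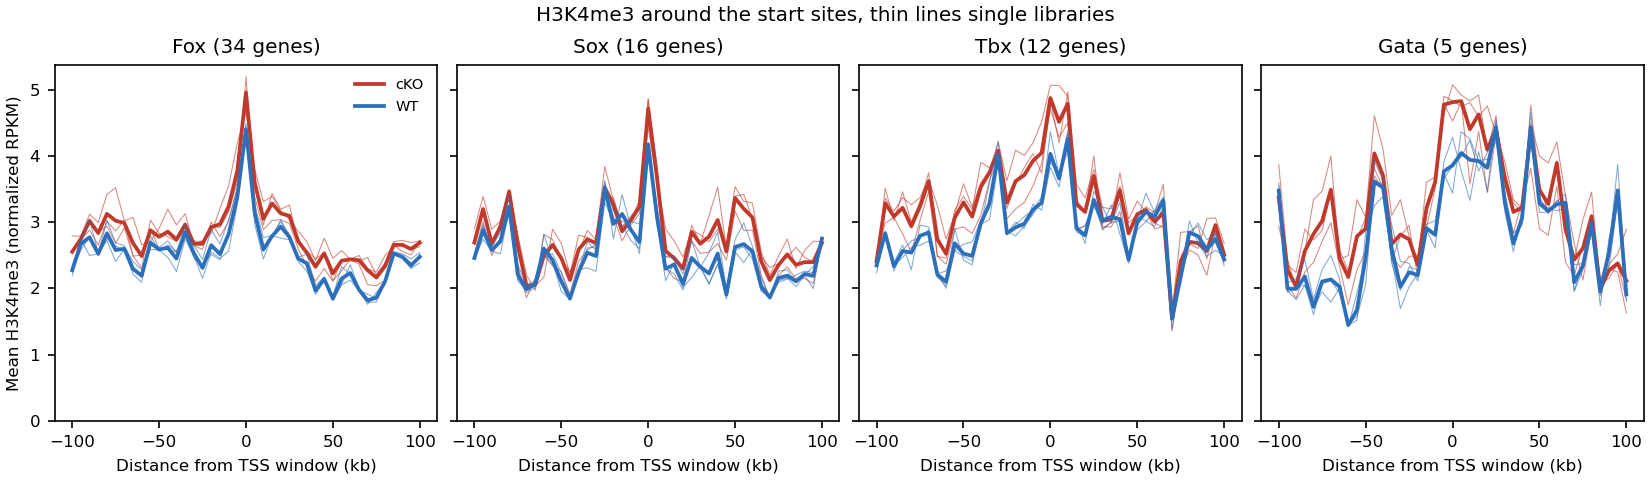
Mean H3K4me3 (vertical axis, normalized RPKM) in windows up to 100 kb either side of the window with the annotated start (horizontal axis, kb, in the direction of transcription), by family, with thick lines for the mean of 3 libraries and thin lines for single libraries. Fox and Sox genes show a narrow peak at the start (Fox means of 4.96 in cKO and 4.41 in WT). At 10 kb after it, Tbx means are still 4.79 in cKO and 4.26 in WT, and Gata means 4.41 and 3.94.

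The mean profile was narrow at Fox and Sox starts, and stayed higher after the start at Tbx and Gata genes, which are few (12 and 5). In cKO the Fox mean was 4.96 at the start, 3.24 at 10 kb before and 3.05 at 10 kb after it, and the Sox mean was 4.72, 3.03 and 2.57. The Tbx mean was 4.88 at the start, 3.93 at 10 kb before, 4.79 at 10 kb after and 3.27 at 15 kb after it, and the Gata mean was 4.81, 3.61, 4.41 and 4.63. WT had this shape too, with a Tbx mean of 4.03 at the start and 4.26 at 10 kb after it, and a Gata mean of 3.86 and 3.94. At the start the cKO mean was above the WT mean in all 4 families, by 0.55 at Fox, 0.54 at Sox, 0.84 at Tbx and 0.95 at Gata starts. The difference was not limited to the start. The Fox means differed by 0.28 at 100 kb before and 0.21 at 100 kb after it, and the Tbx means by 0.75 at 90 kb before, 0.06 at 100 kb before and 0.07 at 100 kb after it. Away from the start it also took the other sign at some positions, such as −1.10 at 95 kb after Gata starts, −0.26 at 15 kb before Sox starts and −0.18 at 65 kb after Tbx starts.

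CpG content of the peak windows had a median of 155 CpG per window, against 70 for the peak windows of all autosomal genes. Members were split at 94 and 196 CpG into 3 groups of similar size. The median difference was 0.25 in the 23 members with the lowest CpG content, 0.47 in the next 22 and 0.67 in the 22 with the highest. Over all autosomal genes split at the same values it was −0.05, 0.25 and 0.43. As a description over 67 genes that share libraries, Spearman's rho between CpG count and difference was 0.16, and over the 23225 autosomal genes it was 0.22. The rho between WT level and difference was −0.47 over the members, in which the WT values enter both measures.

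Genes grouped by where they act gave median peak-window differences on either side of 0, with *Gata4* and *Gata6* counted in more than 1 group. Of 8 measured neural and neural crest genes 7 had a positive difference, with a median of 0.64. The 12 heart, limb and mesoderm genes had a median of 0.76 with 8 positive, and the 7 endoderm genes 0.16 with 5 positive. The 12 broadly expressed genes had a median of 0.12 with 7 positive and included the loss at *Foxj3*. The 6 germ line and gonad genes, among them *Sox8* and *Sox9*, which act in the testis, had a median of −0.04 with 2 positive. No peak window of these groups other than that of *Foxj3* passed the test.

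Of the members within 100 kb of each other, none had a called peak window. *Foxd2* and *Foxe3*, a lens gene, start 17.1 kb apart on chromosome 4 and had differences of 1.55 ± 0.67 and 1.15 ± 0.48 (adjusted p = 0.311 and 0.301). *Foxq1* and *Foxf2*, 69.7 kb apart on chromosome 13, had 0.27 ± 0.38 and 0.71 ± 0.55 (adjusted p = 0.736 and 0.511). *Tbx2* and *Tbx4*, 53.9 kb apart on chromosome 11, had peak-window differences of 1.46 ± 0.51 and −1.17 ± 0.62, neither of which passed the test. The sign at *Tbx4* depended on the window, since its start window had 6.77, 7.30 and 7.16 in cKO and 5.99, 4.15 and 5.22 in WT, without overlap (1.96 ± 0.47, limma adjusted p = 0.0811). A difference between the 2 genes of a pair was not tested.

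Over all 885 windows of the members, 26 were called, of which 25 gained H3K4me3 and 1 lost it, beside 0.563% of all windows that gained and 0.454% that lost. Of the 25 gains 21 were in *Sox5*. Without *Sox5*, 4 of 693 windows gained (0.577%), beside 0.563% of all windows and 0.932% of all windows that carry the name of an autosomal gene. Neighbouring windows of 1 gene are not independent, and 5 long genes (*Sox5*, *Foxp1*, *Sox6*, *Foxp2* and *Foxn3*) held 588 of the 885 windows. Of the 26 called windows 19 overlapped no exon of the gene and 4 held a transcript start.

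The gains outside *Sox5* were at *Gata2* and *Sox6*, described above, and at *Foxo6* and *Foxn3*. The *Foxo6* window (chr4:120270001-120275000) had 5.94, 6.77 and 6.24 in cKO and 4.00, 3.47 and 4.41 in WT (2.36 ± 0.39, limma adjusted p = 0.0312). It lies beside the gene's peak window, 12.3 kb from the start, and that peak window had means of 7.74 in cKO and 7.75 in WT. The *Foxn3* window (chr12:99365001-99370000), which overlaps no exon of this checkpoint suppressor gene, had 6.22, 4.79 and 6.10 in cKO and 2.69, 2.79 and 3.63 in WT (2.67 ± 0.46, limma adjusted p = 0.0356). The peak window of *Foxn3*, 2 windows away, holds an exon and a transcript start and had 6.83, 6.25 and 5.09 in cKO and 7.61, 6.97 and 8.24 in WT. All its cKO values were below all its WT values, but that difference did not pass. Neither window was called with edgeR on the reads, at adjusted p of 0.748 for *Foxo6* and 0.411 for *Foxn3*.

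*Sox5* spans 954 kb on the minus strand of chromosome 6 and was covered by 192 windows (chr6:143825001-144785000). H3K4me3 was higher in cKO along most of its length. The mean over its windows was 2.95, 2.94 and 2.90 in cKO and 1.82, 1.98 and 2.01 in WT. The cKO libraries were all above WT, with a mean difference of 0.99, and 0.1 is the smallest p that an exact permutation test of 3 against 3 libraries can give. The difference was positive in 174 of 192 windows. All cKO libraries exceeded all WT libraries in 104 windows (54.2%), against 12.9% of the windows of the 191 autosomal genes with at least 100 windows. Of its windows 21 gained (10.9%), against 0.703% in those genes, and none was lost, with none lower at an unadjusted p under 0.05. The 2 sets differ in CpG content, with a median of 53 CpG in the *Sox5* windows and 31 in the windows of those genes.

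**Figure D4:**
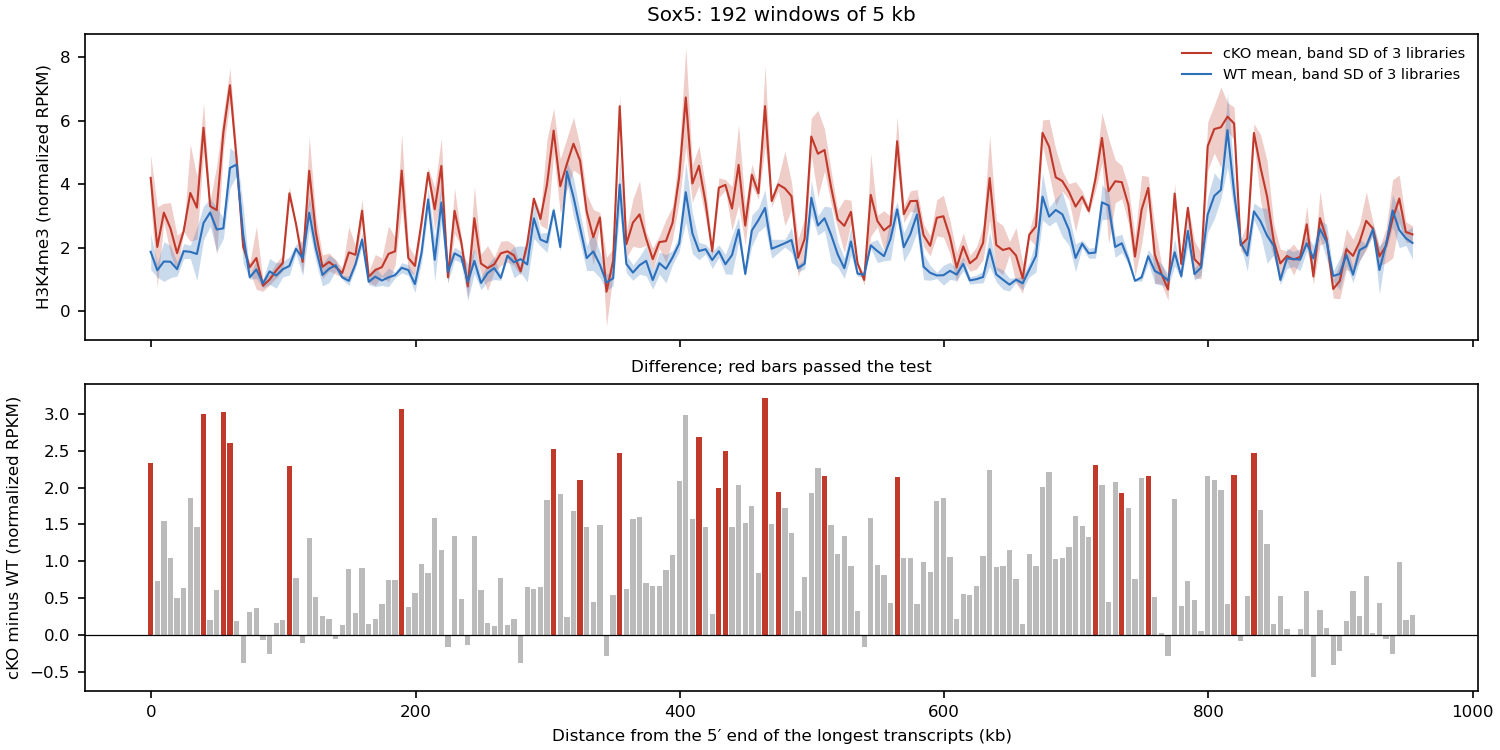
H3K4me3 along *Sox5* (upper panel, normalized RPKM, mean and SD of 3 libraries) and the cKO minus WT difference (lower panel) in 192 windows against the distance from the 5′ end in kb. Differences are mostly positive across the gene, and the 21 red bars are the windows that gained.

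The called *Sox5* windows had differences between 1.93 and 3.21 and a median level of 4.74 in cKO and 2.61 in WT. The largest was in an intron (chr6:144315001-144320000), with 5.0, 7.17 and 7.21 in cKO and 2.59, 3.56 and 3.60 in WT (limma adjusted p = 0.0409). Transcript starts were held by 2 of the 21, and by 4 of all 192 *Sox5* windows. The window with the annotated start (chr6:144780001-144785000) had 3.39, 4.79 and 4.41 in cKO and 2.28, 2.10 and 1.23 in WT (2.33 ± 0.46, limma adjusted p = 0.0482). That of the short transcripts (chr6:143945001-143950000), whose promoter is shown above, had 5.61, 5.32 and 5.91 in cKO and 2.85, 3.37 and 3.21 in WT (2.47 ± 0.35, limma adjusted p = 0.0217). The lowest adjusted p, 0.0179, was at chr6:144725001-144730000, where values were 5.50, 6.25 and 5.13 in cKO and 2.59, 2.30 and 2.94 in WT. The called windows were spread out, with no more than 2 side by side. Of these 21, 17 overlapped no exon of the gene, beside 168 of all 192 *Sox5* windows. The median CpG count of the called windows was 57, and that of the other *Sox5* windows 53.

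The increase was smaller at the 3′ end. In 8 equal parts of the gene, the part at the 3′ end had means of 2.25 in cKO and 1.96 in WT with no called window, and the other 7 parts had differences between 0.71 and 1.57. The largest was in the fifth part from the 3′ end, with 3.39, 3.74 and 3.39 in cKO and 1.88, 1.99 and 1.96 in WT. In the 400 kb beyond the 3′ end the mean difference was 0.33 and in the 400 kb before the 5′ end 0.37, with 1 and 2 called windows of 80 each. Input over *Sox5* was between 2.07 and 2.28 in the 4 input libraries, with 2.28 and 2.07 for cKO and 2.14 and 2.16 for WT.

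Among the 191 autosomal genes with at least 100 windows, *Sox5* ranked 1 by mean difference and 1 by number of gains, with *Elmo1* next by mean difference at 0.79. This ranking describes a gene that was picked out after its values were seen. *Sox6* ranked 20 with a mean difference of 0.45, *Foxp1* 41 with 0.37 and *Foxp2* 108 with −0.01. The *Sox6* means were 1.92, 1.99 and 1.95 in cKO and 1.66, 1.39 and 1.44 in WT, and the *Foxn3* means 2.10, 2.19 and 2.07 against 1.68, 1.62 and 1.66, each without overlap. The *Foxp1* means were 1.70, 2.10 and 1.67 against 1.50, 1.50 and 1.38, also without overlap. *Foxp2*, a gene tied to speech and song, had 2.09, 1.42 and 1.60 against 1.81, 1.56 and 1.75, with overlap of the genotypes. In the other direction, the *Foxj3* means were 1.52, 1.43 and 1.24 against 1.84, 1.81 and 1.62, without overlap and with 15 of 18 windows lower in cKO. The median of the mean difference over the 191 genes was 0.06.

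**Figure D5:**
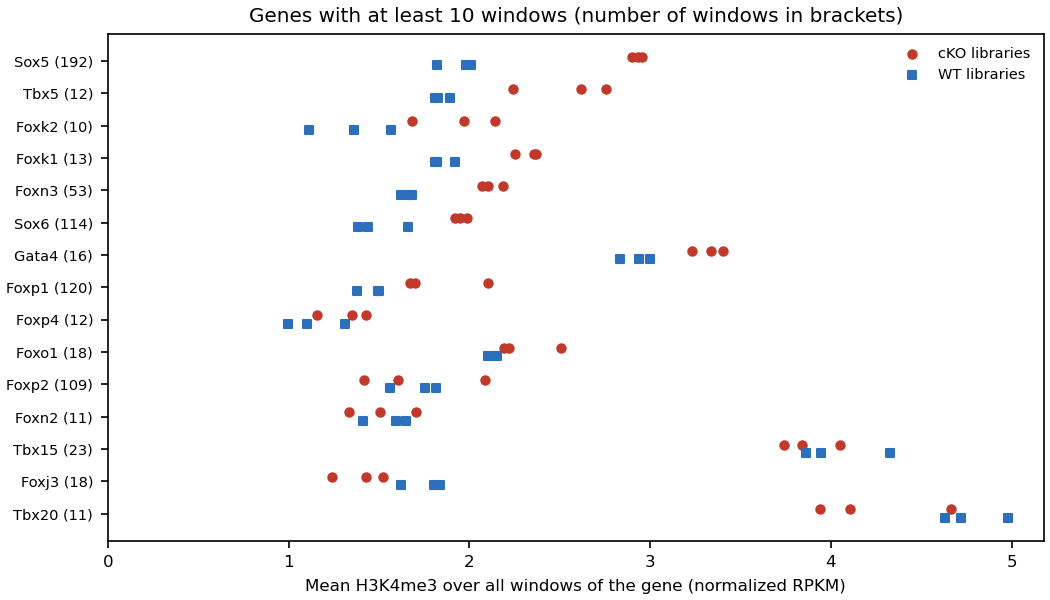
Mean H3K4me3 over all windows of a gene (horizontal axis, normalized RPKM) in each library for the 15 members with at least 10 windows, ordered by the difference. *Sox5* has the widest gap (cKO 2.90 to 2.95, WT 1.82 to 2.01), and *Foxj3* and *Tbx20* stand at the other end with lower means in cKO.

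With an intensity trend in the variance model, 53 windows of the members gained and 3 were lost, 37 of the gains in *Sox5*, beside 1.57% of all windows that gained and 2.01% that were lost under that model. With edgeR on the reads, 24 windows gained, 17 of them in *Sox5*, beside 1.07% of the windows tested. Of the 21 *Sox5* gains of the limma fit 5 also passed with edgeR, and none of the other 5 called windows did. The mean difference over *Sox5* stayed between 0.94 and 1.03 when any single library was left out. The number of its called windows was then 0 without cKO replicate 4 or any 1 of the WT replicates, 13 without cKO replicate 3 and 28 without cKO replicate 1.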

How the data were processed

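Analysed were 6 H3K4me3 ULI-nChIP-seq libraries (3 cKO and 3 WT) and 4 of input chromatin. The authors trimmed reads with Trim Galore 0.4.2, aligned them to GRCm38 with Bowtie2 2.2.9, removed reads with MAPQ below 20, left out windows with high input, and quantified the other 5 kb windows with SeqMonk. What they deposited for H3K4me3 is a score, RPKM rescaled by the authors so that a low and a high percentile agree between libraries. For input, the deposited columns hold signal per window without that rescaling, so inputs and H3K4me3 were not compared by size. The values of 100% of windows were whole reads within 0.02 reads, and these reads were used for edgeR. Every column was mapped to a labelled sample (0 not mapped).

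All 544879 windows were fitted with limma 3.58.1 (R 4.3.3) on the deposited scale, without an intensity trend, two-sided, with Benjamini-Hochberg adjustment over all windows and a threshold of 0.05. Windows with a gain or loss are those past it. Replicates are separate pools, and p-values measure the spread between pools. Depth ran from 10856015 to 32775874 reads in windows, and the median window held 11 to 47 reads per H3K4me3 library, which limits single windows. Genes were placed with GENCODE M21. Reads were tested with edgeR 4.0.16. Tables and plots were made with pandas 2.3.3, matplotlib 3.10.9, scipy 1.17.1 and numpy 2.4.6 under Python 3.11.15, and the fit was tested on simulated data.

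A member was named if any of its windows was called, if its peak window was among the 3 highest or 3 lowest of its family by level (1 and 1 for Gata) or by difference, or if it lay within 100 kb of another member, which gave 37 names, and 1 of these is not reported here. Genes outside this rule were named after their values were seen. The members and lists were chosen with earlier results of these data known. Alternatives were an intensity trend, log2 scales with a pseudocount of 1 or 0.1, quantile normalization, a minimum mean of 1, autosomes only, a threshold of 0.01, a 2-fold limit, blocking on the replicate number, omitting 1 library at a time, and the window with the annotated start. The edgeR test (TMM, quasi-likelihood, at least 10 reads per window over the 6 libraries) called 11514 windows. It and the *Sox5* summaries were added after the data were seen.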

Additional observations from a re-analysis of the deposited data

How the results depend on the processing

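Of 5539 windows called in the whole table, 26 were in the members, 21 in *Sox5* and 3 at peak windows. In that order, the counts were 19492, 56, 37 and 4 with an intensity trend. They were 0, 0, 0 and 0 on either log2 scale and at an adjusted p under 0.01, and 1, 0, 0 and 0 with quantile normalization. At unadjusted p under 0.05, 198 of 885 member windows (22.4%) passed in the reported fit, 165 (18.6%) and 159 (18%) on the log2 scales with pseudocounts of 1 and 0.1, and 228 (25.8%) with quantile normalization, beside 14.9%, 13.4%, 10.6% and 16.7% of all windows. With a 2-fold limit, which has no clear meaning on a scale without a true zero, the counts were 3354, 10, 10 and 0. With edgeR they were 11514, 25, 17 and 0. Leaving out 1 library gave 0 to 17979 windows in all, 0 to 48 in the members, 0 to 28 in *Sox5* and 0 to 6 at peak windows, with the highest counts without cKO replicate 1. The cause was not tested. The Tbx median was 0.69 at start windows. With the replicate block the counts were 33433, 104, 55 and 17. The difference in that fit rests on replicates 1 and 4 alone, since cKO replicate 3 and WT replicate 2 have no counterpart. The genotypes share only replicate numbers 1 and 4, whose deviations correlated at 0.32 and 0.02, so the libraries were not taken as paired, and family medians under the block were 0.87, 0.44, 0.15 and 1.10 for Fox, Sox, Tbx and Gata. The filter on low means and the fit on autosomes left every count within 1.5 times. Of 518 values for 37 named members under 14 settings, 481 kept their side of the threshold, 10 newly passed and 27 no longer passed. Differences that did not pass could change sign. At *Foxo1*, with means of 6.76 in cKO and 7.27 in WT, cKO replicates 1 and 4 alone had 8.60 and 7.16. Shallow windows and 3 libraries per genotype limit single calls.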

Other observations

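Some genes of the 4 families lay outside the members because their windows carry another gene's name or lie on the X chromosome. The window with the start of *Foxc2*, a mesenchyme forkhead gene, carries the name *Gm20388* and had 5.72, 5.85 and 6.29 in cKO and 3.58, 3.47 and 3.63 in WT, a gain of 2.40 ± 0.34 (limma adjusted p = 0.0215). The 6 other autosomal genes of this kind had positive differences that did not pass, from 0.46 at *Foxh1* to 1.95 at *Foxf1* (adjusted p = 0.0587). Starts of *Foxf1*, *Foxc2* and *Foxl1* all lie in windows named *Gm20388* (chr8:121080001-121130000), so these are neighbours and not separate loci. At the start of *Foxl2*, the ovarian forkhead gene and a granulosa marker, the values were 6.39, 8.36 and 6.44 in cKO and 4.52, 3.86 and 4.26 in WT, a gain of 2.85 ± 0.53 (adjusted p = 0.0415). *Foxo3*, which keeps primordial follicles dormant, had means of 5.30 and 6.88 (adjusted p = 0.295). On the X chromosome *Tbx22* had 0.98 and 2.69 (adjusted p = 0.0739).

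Among partners of these factors, the 7 measured SOX partners had a median of −0.15, and *Lef1*, a WNT effector with an HMG box, lost H3K4me3, with 6.61, 5.06 and 6.10 in cKO and 8.97, 9.50 and 9.02 in WT (−3.24 ± 0.44, adjusted p = 0.0196). The 9 measured GATA partners had a median of −0.15 and the 4 T-box genes with other names 0.53, with no called window in either group. Of 6 Groucho corepressors, 3 had a positive and 3 a negative difference. *Aes* gained, with means of 5.40 in cKO and 3.73 in WT (adjusted p = 0.0496), and *Tle6* had means of 5.12 and 7.57 and did not pass (adjusted p = 0.0965). With an intensity trend in the limma fit the calls were the other way round, with adjusted p = 0.156 for *Aes* and 0.0306 for *Tle6*.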
